A study of Homo sapiens with 24 samples.

Results

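The 4 genes of the neurofilament subunits, NEFL, NEFM, NEFH and INA, and the gene of the transcription factor POU3F2 were followed by symbol through all 24 gene tables of the series, as 5 of 58266 gene symbols. They were chosen from results of the comparison of YAP/TAZ-dKO with WT cells, so their values in that comparison are a description and carry no test. What the data show is unlike the group's name: of the 4 neurofilament genes, NEFL alone was expressed above 0.1 FPKM in any library. NEFL averaged 457 FPKM in YAP/TAZ-dKO cells and 15 FPKM in WT cells on 40 kPa, and POU3F2 averaged 12.3 FPKM in YAP/TAZ-dKO cells and 0.210 FPKM in WT cells. FPKM is the estimated number of fragments per length of transcript and per depth of library, so levels can be set beside each other between genes.

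The cells were HEK293A, an adherent line from human embryonic kidney, seeded in serum-containing medium on fibronectin-coated hydrogels that were stiff (40 kPa) or soft (1 kPa), with no other treatment. The 4 genotypes were labelled YAP/TAZ-dKO, LATS1/2-dKO, RAP2A/B/C-tKO and WT, and each was grown on both stiffnesses with 3 libraries per group, called biological replicates in the series' design text. The editing method and the number of clones per line are not given in these sources, so a change caused by the named genes and a trait of a single clone cannot be told apart. The study asked how stiffness reaches gene expression through the RAP2 GTPases and the Hippo pathway. In that pathway LATS1 and LATS2 are kinases that hold back the coactivators YAP and TAZ, which activate genes through TEAD factors.

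Neurofilaments are the intermediate filaments of neurons and set the calibre of large axons. NEFL, the light subunit, is the core on which NEFM and NEFH, the subunits with long phosphorylated tails, assemble, and INA (alpha-internexin) joins them in central neurons. POU3F2, also called BRN2, is a class III POU factor of neural progenitors and neurons, binds the octamer motif, and, together with partners such as MYT1L, turns cultured fibroblasts into neuron-like cells. Embryonic kidney lines of this kind have long been known to express some neuronal genes.

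By depth estimated from the deposited confidence intervals, the libraries held 18.79 to 40.97 M fragments, with a median of 31.69 M, and the shallowest was LATS1/2-dKO on 40 kPa replicate 1. That library and RAP2A/B/C-tKO on 40 kPa replicate 3 stood apart: their deviations from the group mean followed the GC content of the genes, with rank correlations across 15513 genes of -0.567 and -0.597 (genes are not independent). The other libraries of those 2 groups deviated with the opposite sign, at 0.467 and 0.383 in LATS1/2-dKO and 0.536 and 0.485 in RAP2A/B/C-tKO on 40 kPa. In the 18 libraries outside these 2 groups the size of that correlation was at most 0.334. In the YAP/TAZ-dKO line the targeted genes were low: YAP1 averaged 6.20 ± 0.653 FPKM in YAP/TAZ-dKO cells and 31.6 ± 0.614 FPKM in WT cells on 40 kPa, and WWTR1, the gene of TAZ, averaged 10.7 ± 0.724 FPKM in YAP/TAZ-dKO cells and 26.3 ± 0.685 FPKM in WT cells (SD, n = 3 each). The RNA gave a mixed check of the other lines: on 40 kPa LATS1 averaged 5.69 ± 0.299 FPKM in LATS1/2-dKO cells and 12.3 ± 0.156 FPKM in WT cells, and RAP2A averaged 6.79 ± 0.667 FPKM in RAP2A/B/C-tKO cells and 8.78 ± 0.245 FPKM in WT cells. The mean of LATS2 was not below that of WT cells in LATS1/2-dKO cells, nor were those of RAP2B and RAP2C in RAP2A/B/C-tKO cells, on either gel. Whether those edits would lower the RNA is unknown without the editing method, so the names of these lines rest on the labels. CTGF, the classic YAP target, averaged 0.221 ± 0.064 FPKM in YAP/TAZ-dKO cells and 22.5 ± 0.88 FPKM in WT cells on 40 kPa. Of 22 markers of kidney epithelium and kidney development, 13 stayed under 1 FPKM in every library. The collecting duct channel gene AQP2 and the tubule gene UMOD were listed at 0 throughout. Developmental factors were among the rest, such as SIX2 at up to 30.74 FPKM and WT1 at up to 16.22 FPKM.

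Promoter windows are shown for POU3F2, which was high in YAP/TAZ-dKO cells, and for INA, which was listed at 0 almost everywhere. The windows run from 250 bases before to 50 bases after the gene start in RefSeq on GRCh38.p14, at chr6:98834324-98834623 on the + strand and chr10:103276888-103277187 on the + strand, and were not mixed with the hg19 coordinates of the tables. Capitals mark the motif matches that were found on either strand.
POU3F2: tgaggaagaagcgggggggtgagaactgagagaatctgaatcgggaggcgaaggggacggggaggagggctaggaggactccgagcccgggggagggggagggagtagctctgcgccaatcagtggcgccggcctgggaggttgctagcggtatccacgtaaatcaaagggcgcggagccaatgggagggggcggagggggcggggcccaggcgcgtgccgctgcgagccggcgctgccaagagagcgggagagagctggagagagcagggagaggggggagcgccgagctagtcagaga
INA: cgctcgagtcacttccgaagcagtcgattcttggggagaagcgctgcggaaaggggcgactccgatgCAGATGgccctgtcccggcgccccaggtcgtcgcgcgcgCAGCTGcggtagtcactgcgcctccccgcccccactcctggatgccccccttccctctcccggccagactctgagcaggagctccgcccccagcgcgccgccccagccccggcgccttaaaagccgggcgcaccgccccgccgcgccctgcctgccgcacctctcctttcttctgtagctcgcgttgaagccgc
Searched were GGAATG, the core bound by TEAD factors, ATGCAAAT, the POU octamer, and CANNTG, the E-box of proneural factors, each on both strands. The POU3F2 window held none of them. The INA window held 2 E-boxes, at positions 68 and 107 counted from the 5′ end, which overlap no other match, and neither of the other motifs. Of 35116 promoter windows of this length, 14% held GGAATG, 1.77% held ATGCAAAT and 68.7% held CANNTG. The windows of POU3F2 and INA had 24 and 35 CpG dinucleotides, against a median of 14 over all windows, and a GC content of 68.33% and 71.33%. NEFH was not in the table of promoters.

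On hg19, the build of the deposited tables, NEFL (ENSG00000277586.1) lies on chromosome 8 from 24808468 to 24814624, and NEFM (ENSG00000104722.13) lies 31.9 kb away from 24770525 to 24776611. NEFH (ENSG00000100285.9) lies on chromosome 22 from 29876219 to 29887379 and INA (ENSG00000148798.9) on chromosome 10 from 105036920 to 105050108. POU3F2 (ENSG00000184486.8) lies on chromosome 6 from 99282468 to 99287366. The entry CTD-2168K21.2 overlaps NEFL, GS1-72M22.1 overlaps NEFM and AC000035.3 overlaps NEFH, while INA and POU3F2 have no overlapping entry. The library kit kept the strand, but no source used here states the strand setting of the counting, so reads of overlapping entries cannot be told apart with certainty.

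NEFL, the light subunit, was abundant in YAP/TAZ-dKO cells, with 457, 457 and 456 FPKM on 40 kPa and 496, 553 and 554 FPKM on 1 kPa. In WT cells it was at 15.4, 15 and 14.5 FPKM on 40 kPa and at 17.0, 17.7 and 17.5 FPKM on 1 kPa. All 6 YAP/TAZ-dKO libraries thus lay far above all 6 WT libraries. The ratio of the means of YAP/TAZ-dKO to WT cells was 30.5 on 40 kPa and 30.7 on 1 kPa. LATS1/2-dKO cells had 16.7, 22.0 and 18.7 FPKM on 40 kPa and 17.6, 18.9 and 18.1 FPKM on 1 kPa. RAP2A/B/C-tKO cells had 12.6, 12.9 and 10.7 FPKM on 40 kPa and 14.2, 12.8 and 12.4 FPKM on 1 kPa. Both lines lay within a few FPKM of WT cells. LATS1/2-dKO libraries were above the highest WT library of their stiffness except for 1 on 1 kPa, and all RAP2A/B/C-tKO libraries were below the lowest.

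POU3F2 followed the same split at a lower level. It was at 12.5, 12.6 and 11.8 FPKM on 40 kPa and at 12.0, 12.4 and 12.8 FPKM on 1 kPa in YAP/TAZ-dKO cells. In WT cells it was at 0.230, 0.228 and 0.171 FPKM on 40 kPa and at 0.246, 0.323 and 0.359 FPKM on 1 kPa. The YAP/TAZ-dKO libraries agreed closely with each other, and none came near the WT libraries. The ratio of the means of YAP/TAZ-dKO to WT cells was 58.5 on 40 kPa and 40.1 on 1 kPa. LATS1/2-dKO cells had 0.719, 0.694 and 0.674 FPKM on 40 kPa and 0.602, 0.619 and 0.533 FPKM on 1 kPa, and all 6 libraries lay above all 6 WT libraries. RAP2A/B/C-tKO cells had 0.118, 0.0882 and 0.0759 FPKM on 40 kPa and 0.194, 0.247 and 0.198 FPKM on 1 kPa, so that the 40 kPa libraries were below every WT library. The low values rest on few fragments: the deposited intervals imply 13.0 to 41.3 fragments in RAP2A/B/C-tKO libraries and 32.7 to 57.3 in WT libraries, against 1882 to 2654 in YAP/TAZ-dKO libraries. In these bulk samples, fewer cells that express a gene and less RNA per cell cannot be told apart.

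**Figure D1:**
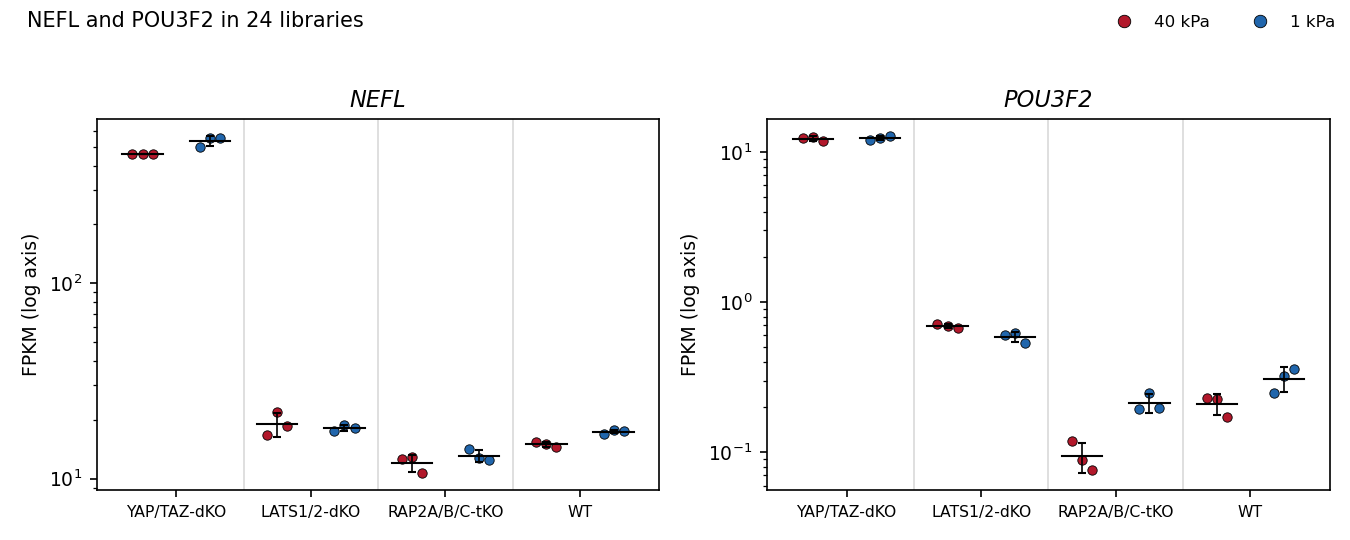
FPKM of NEFL (left) and POU3F2 (right) in each of 24 libraries on log axes, by genotype and stiffness. Points are libraries, horizontal lines are group means and bars are the SD of 3 libraries. YAP/TAZ-dKO libraries lie at 456 to 554 FPKM for NEFL and at 11.8 to 12.8 FPKM for POU3F2, apart from all other libraries.

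NEFM and NEFH, the tail-bearing subunits, and INA did not go with NEFL. NEFM had 0.0128, 0 and 0.0255 FPKM on 40 kPa and 0.0493, 0.0577 and 0.0108 FPKM on 1 kPa in YAP/TAZ-dKO cells, against 0, 0.0127 and 0.0421 FPKM on 40 kPa and 0, 0.0222 and 0 FPKM on 1 kPa in WT cells. Its highest value in any library was 0.0939 FPKM, in LATS1/2-dKO on 1 kPa replicate 2, and 8 of 24 libraries listed it at 0. YAP/TAZ-dKO and WT libraries overlapped, and the upper bound of the deposited 95% interval reached at most 0.302 FPKM. NEFH lay between 0 and 0.0100 FPKM, listed at 0 in 13 libraries, with an upper bound of at most 0.0386 FPKM. In YAP/TAZ-dKO cells NEFH was listed at 0.00829, 0 and 0 FPKM on 40 kPa and at 0, 0.00613 and 0.00695 FPKM on 1 kPa, against 0, 0.00598 and 0 FPKM on 40 kPa and 0, 0 and 0.00962 FPKM on 1 kPa in WT cells. INA was listed at 0 in 23 libraries and at 0.00916 FPKM in YAP/TAZ-dKO on 1 kPa replicate 1. None of these 3 genes carried a failed status in any library. A listed 0 is still no proof of absent RNA, since the tables list all 37 mitochondrial entries at 0 as well. No mean or fold is therefore given for these 3 genes.

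**Figure D2:**
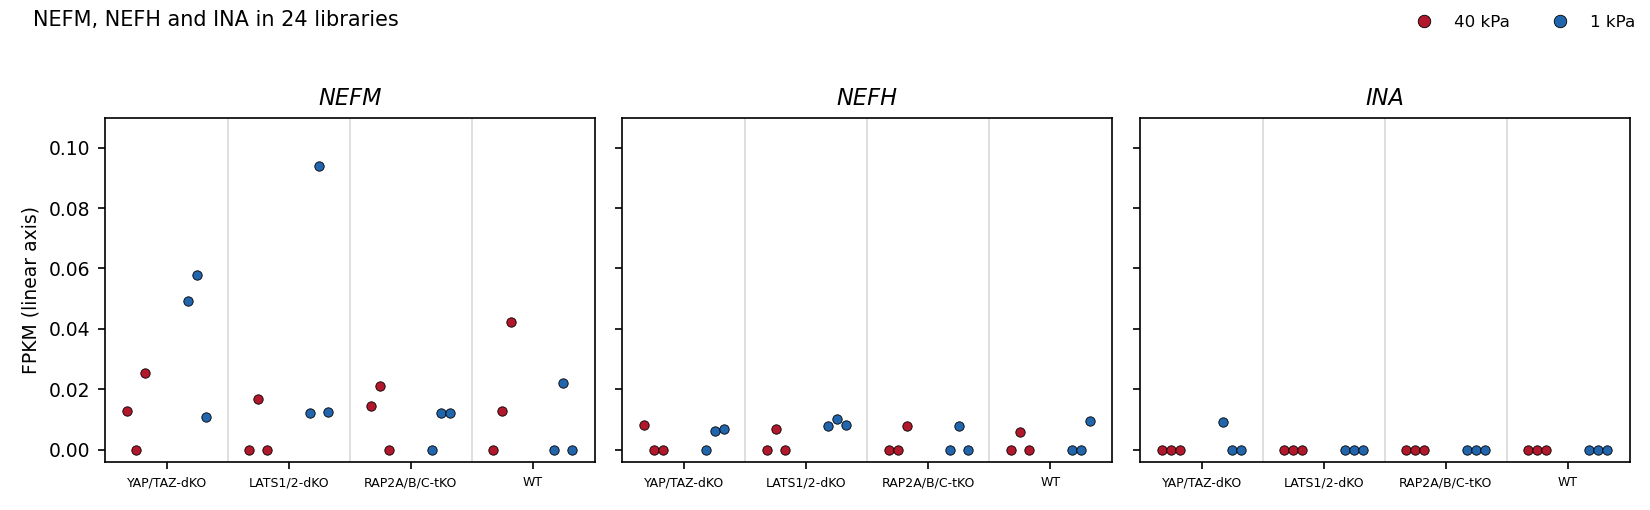
FPKM of NEFM, NEFH and INA in each of 24 libraries on one linear axis, by genotype and stiffness. Every point, 1 per library, is below 0.1 FPKM, and YAP/TAZ-dKO and WT libraries overlap for all 3 genes.

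NEFL made up 99.45% to 100% of the summed FPKM of the 4 neurofilament genes in every library, and the other 3 together reached at most 0.104 FPKM. NEFM shares the gene neighbourhood of NEFL, 31.9 kb away, yet stayed below 0.06 FPKM in all 6 YAP/TAZ-dKO libraries in which NEFL was at 456 FPKM or more. The neurofilament RNA of YAP/TAZ-dKO cells was therefore that of the light subunit.

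For tests, log2(FPKM + 1) was fitted with limma across the 15828 genes that had at least 1 FPKM in at least 3 libraries. NEFL and POU3F2 were tested, and NEFM, NEFH and INA were under the filter. POU3F2 passed through the 6 YAP/TAZ-dKO libraries alone, the only ones above 1 FPKM. All differences below are on this log2 scale, which understates the change of a low gene such as POU3F2. YAP/TAZ-dKO minus WT was 4.85 (SE 0.0567) for NEFL, the highest of 15828 genes, and 3.41 (SE 0.042) for POU3F2, the sixth highest (rank 6). The 4 entries between them were the short RNAs or clone-named entries MIR1909, AC009121.1, AC121334.1 and MIR4737, whose standard errors were 1.12 to 1.475. In this comparison 50.6% of all tested genes were called at an adjusted p below 0.05, 23.6% higher and 27% lower, and the median difference of all genes was 0.00. Since this comparison chose the genes, nothing further is read from these ranks.

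Stiffness was a comparison that the choice did not use. Neither gene was called between 40 and 1 kPa in any genotype by limma, where 0.347% of genes were called in YAP/TAZ-dKO, 0.708% in LATS1/2-dKO, 3.87% in RAP2A/B/C-tKO and 0.986% in WT cells. At an unadjusted p below 0.05, 1 of the 2 genes passed in YAP/TAZ-dKO cells, 0 in LATS1/2-dKO cells, 1 in RAP2A/B/C-tKO cells and 1 in WT cells, beside 7.7%, 12.8%, 21.4% and 12.2% of all tested genes in that order.

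NEFL was at 457 ± 0.685 FPKM on 40 kPa and 535 ± 33.1 FPKM on 1 kPa in YAP/TAZ-dKO cells (SD, n = 3 each). The difference was -0.23 (95% interval -0.39 to -0.06, unadjusted p = 0.0116, adjusted p = 0.415 by limma), with no overlap between libraries. In WT cells NEFL was at 15 ± 0.439 FPKM on 40 kPa and 17.4 ± 0.335 FPKM on 1 kPa, a difference of -0.20 (interval -0.37 to -0.035, unadjusted p = 0.0206, adjusted p = 0.275), again with no overlap. NEFL was thus numerically lower on the stiff gel in both lines, at 0.854 of its level on the soft gel in YAP/TAZ-dKO and 0.861 in WT cells, without passing the test. Both differences passed it when the 2 GC-skewed libraries, which belong to other groups, were left out: adjusted p = 0.0486 in YAP/TAZ-dKO and 0.045 in WT cells, with the same log2 differences. LATS1/2-dKO cells had 19.1 ± 2.69 FPKM on 40 kPa and 18.2 ± 0.659 FPKM on 1 kPa (0.06, interval -0.11 to 0.23, adjusted p = 0.826), and the sign turned, to -0.04, without 40 kPa replicate 2. RAP2A/B/C-tKO cells had 12.0 ± 1.2 FPKM on 40 kPa and 13.1 ± 0.927 FPKM on 1 kPa (-0.12, interval -0.29 to 0.05, adjusted p = 0.391). In these 2 lines the libraries of the stiffnesses overlapped, and without the GC-skewed libraries the differences were 0.15 in LATS1/2-dKO and -0.04 in RAP2A/B/C-tKO cells, neither of them called.

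POU3F2 had near-equal means on both gels in YAP/TAZ-dKO cells, with 12.3 ± 0.408 FPKM on 40 kPa and 12.4 ± 0.375 FPKM on 1 kPa (-0.01, interval -0.14 to 0.11, adjusted p = 0.987). The sign of this near-zero difference turned, to at most 0.01, without 40 kPa replicate 3 or 1 kPa replicate 3. At low levels it was at 0.094 ± 0.0217 FPKM on 40 kPa and 0.213 ± 0.0295 FPKM on 1 kPa in RAP2A/B/C-tKO cells, without overlap, for a ratio of 0.442. That difference was -0.15 (interval -0.27 to -0.02, adjusted p = 0.158) with a pseudocount of 1, and it was called with a pseudocount of 0.1, at -0.69 (adjusted p = 0.0138). In WT cells POU3F2 had 0.210 ± 0.0334 FPKM on 40 kPa and 0.310 ± 0.0577 FPKM on 1 kPa (-0.11, interval -0.24 to 0.01, adjusted p = 0.474). In LATS1/2-dKO cells it had 0.696 ± 0.0222 FPKM on 40 kPa and 0.585 ± 0.0455 FPKM on 1 kPa (0.10, interval -0.03 to 0.22, adjusted p = 0.531). LATS1/2-dKO cells were numerically higher on the stiff gel and RAP2A/B/C-tKO and WT cells lower, each without overlap and none called.

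Whether the response to stiffness differed between a knockout line and WT cells was tested as an interaction. Neither gene was called in any of the 3 interactions by limma, where 0.392% of genes were called for YAP/TAZ-dKO, 0.0632% for LATS1/2-dKO and 0.0505% for RAP2A/B/C-tKO. At an unadjusted p below 0.05, both genes passed for LATS1/2-dKO and neither for the other lines, beside 9.06% of all tested genes for LATS1/2-dKO, 8.83% for YAP/TAZ-dKO and 6.41% for RAP2A/B/C-tKO. For LATS1/2-dKO the interaction was 0.26 for NEFL (interval 0.02 to 0.50, adjusted p = 0.488) and 0.21 for POU3F2 (interval 0.03 to 0.39, adjusted p = 0.427). For YAP/TAZ-dKO it was -0.02 for NEFL (interval -0.26 to 0.22, adjusted p = 0.986), turning to at most 0.01 without YAP/TAZ-dKO on 1 kPa replicate 2 or 3, and 0.10 for POU3F2 (interval -0.08 to 0.28, adjusted p = 0.855). For RAP2A/B/C-tKO it was 0.08 for NEFL (interval -0.15 to 0.32, adjusted p = 0.817) and -0.04 for POU3F2 (interval -0.21 to 0.14, adjusted p = 0.902), which came to 2.597e-05 without WT on 1 kPa replicate 1. The intervals leave room for differences of about the size of the stiffness responses themselves.

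The lines in which YAP and TAZ targets were raised gave different answers. NEFL rose in LATS1/2-dKO cells by 0.19 (SE 0.0567, adjusted p = 0.0129) and fell in RAP2A/B/C-tKO cells by 0.34 (SE 0.0567, adjusted p = 0.000355), each against WT and averaged over both stiffnesses. The ratio of LATS1/2-dKO to WT means for NEFL was 1.28 on 40 kPa and 1.05 on 1 kPa, where the libraries overlapped. The ratio of RAP2A/B/C-tKO to WT means for NEFL was 0.803 on 40 kPa and 0.755 on 1 kPa, with no overlap on either. In these comparisons 33.9% of all tested genes were called for LATS1/2-dKO and 16% for RAP2A/B/C-tKO. Both NEFL calls held under all 32 settings tried, among them the fit without the GC-skewed libraries, at 0.24 for LATS1/2-dKO and -0.30 for RAP2A/B/C-tKO. POU3F2 calls made with the filter are not read as support here. All libraries of these lines and of WT were under 1 FPKM, and it entered those tests only through the YAP/TAZ-dKO libraries. Its mean in LATS1/2-dKO cells was 3.31 times WT on 40 kPa and 1.89 times WT on 1 kPa, with no overlap. The log2 difference was 0.38 (SE 0.042). With no filter on low FPKM, where its entry did not depend on YAP/TAZ-dKO, the adjusted p was 4.28e-06 by limma. Its mean in RAP2A/B/C-tKO cells was 0.448 of WT on 40 kPa and, with overlap, 0.688 of WT on 1 kPa. That log2 difference was -0.13 (SE 0.042), at the edge of the test with the filter (adjusted p = 0.0463) and not called without it (adjusted p = 0.106). The call held under 9 of 31 settings and was lost on leaving out any of 19 of the 24 libraries, with adjusted p-values of 0.0337 to 0.103 over the 24. It held without WT 1 kPa replicate 1, WT 40 kPa replicate 3, RAP2A/B/C-tKO 40 kPa replicate 1, LATS1/2-dKO 40 kPa replicate 1 or LATS1/2-dKO 40 kPa replicate 3. The 6 WT libraries are the same in these comparisons and in the one that chose the genes. Of 20 tested YAP and TAZ target genes, 16 were higher and 1 lower in LATS1/2-dKO cells and 12 higher and 0 lower in RAP2A/B/C-tKO cells, against 2 higher and 16 lower in YAP/TAZ-dKO cells. Over all tested genes the shares were 16% higher and 17.8% lower in LATS1/2-dKO cells. They were 7.4% and 8.57% in RAP2A/B/C-tKO and 23.6% and 27% in YAP/TAZ-dKO cells.

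**Figure D3:**
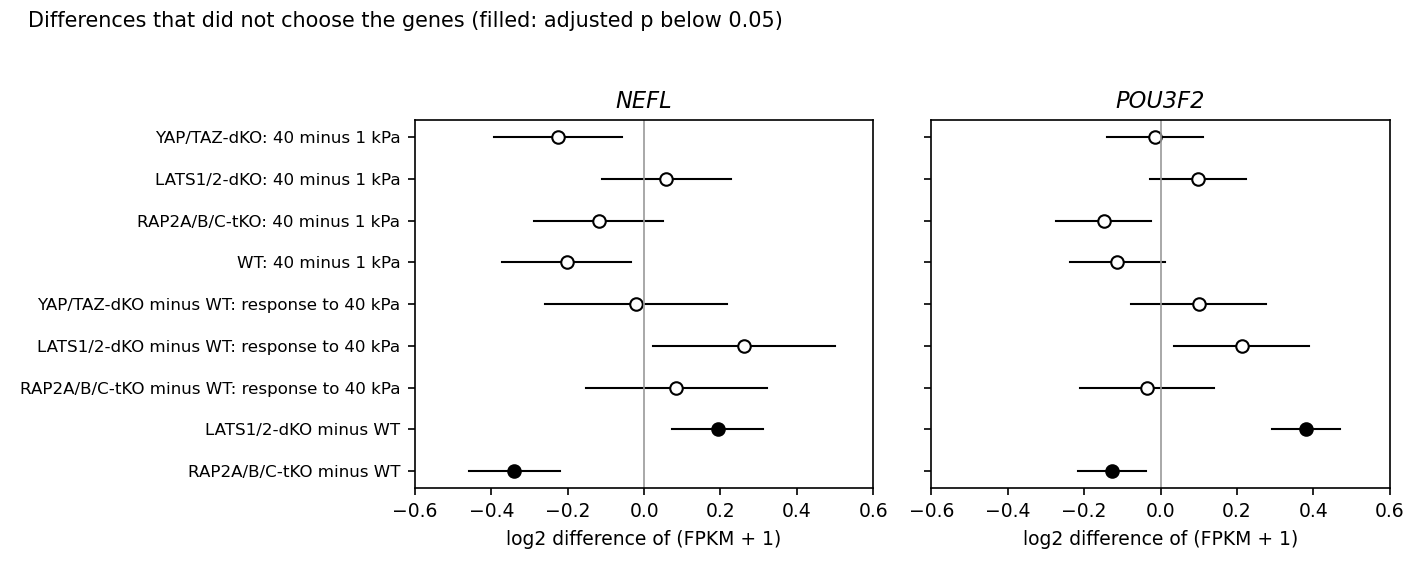
Log2 differences of NEFL (left) and POU3F2 (right) in the comparisons that did not choose the genes, with 95% intervals; filled points have an adjusted p below 0.05. The 4 filled points are the LATS1/2-dKO and RAP2A/B/C-tKO differences from WT, at 0.19 and -0.34 for NEFL and at 0.38 and -0.13 for POU3F2, which passed the filter only through YAP/TAZ-dKO libraries and whose -0.13 was not called with no filter.

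Ordered by mean, NEFL was highest in YAP/TAZ-dKO on 1 kPa, then YAP/TAZ-dKO on 40 kPa, LATS1/2-dKO on 40 kPa, LATS1/2-dKO on 1 kPa, WT on 1 kPa, WT on 40 kPa, RAP2A/B/C-tKO on 1 kPa and RAP2A/B/C-tKO on 40 kPa. Neighbours in that order overlapped between both LATS1/2-dKO groups, between LATS1/2-dKO and WT on 1 kPa, and between both RAP2A/B/C-tKO groups. For POU3F2 the order was YAP/TAZ-dKO on 1 kPa, YAP/TAZ-dKO on 40 kPa, LATS1/2-dKO on 40 kPa, LATS1/2-dKO on 1 kPa, WT on 1 kPa, RAP2A/B/C-tKO on 1 kPa, WT on 40 kPa and RAP2A/B/C-tKO on 40 kPa. Overlaps between POU3F2 neighbours were those of both YAP/TAZ-dKO groups, of WT and RAP2A/B/C-tKO on 1 kPa, and of RAP2A/B/C-tKO on 1 kPa and WT on 40 kPa.

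The genes with the most similar pattern to POU3F2 over the 8 group means were PUDP, ENPP2 and CTNNA3, at root mean square differences of 0.184, 0.188 and 0.214 on the centred log2 scale. Candidates were 10367 tested genes, clone names aside, whose highest group mean reached at least a set share of that of POU3F2, with no upper limit. PUDP, a pseudouridine phosphatase gene, lay between 8.01 and 10.1 FPKM in YAP/TAZ-dKO libraries and between 0 and 0.129 FPKM in all others. ENPP2, the gene of autotaxin, averaged 13.1 and 10.8 FPKM in YAP/TAZ-dKO cells on 40 and 1 kPa and 0.551 and 0.616 FPKM in WT cells. CTNNA3, an alpha-catenin gene, averaged 10.0 and 10.3 FPKM in YAP/TAZ-dKO cells and 0.292 and 0.212 FPKM in WT cells. Like POU3F2, PUDP and CTNNA3 passed the filter only through the YAP/TAZ-dKO libraries. For NEFL the nearest among 605 genes taken by the same rule, PTMS, RBBP7 and ISYNA1, lay 1.68, 1.76 and 1.77 away. Its YAP/TAZ-dKO difference from WT was the highest of 15828 genes, so no gene could match that step. PTMS, the gene of parathymosin, was at 390 and 456 FPKM in YAP/TAZ-dKO cells and 182 and 221 FPKM in WT cells on 40 and 1 kPa, a far smaller step.

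Other intermediate filament genes moved apart from NEFL in YAP/TAZ-dKO cells. Of 12 tested, 2 were higher, 7 lower and 3 not called against WT, beside 23.6% higher and 27% lower among all tested genes, with a median difference of -0.45 beside 0.00 for all genes. PRPH, peripherin, the neuronal filament of peripheral nerves, had 5.32 ± 0.848 FPKM in YAP/TAZ-dKO cells and 0.885 ± 0.146 FPKM in WT cells on 40 kPa. It is given as a value because it passed the filter only through the YAP/TAZ-dKO libraries, so that 1 of the 2 genes counted as higher had to differ. The keratins of simple epithelia fell: on 40 kPa KRT19 lay between 0 and 0.191 FPKM in YAP/TAZ-dKO libraries and between 17.6 and 20.8 FPKM in WT libraries. KRT8 averaged 29.3 FPKM in YAP/TAZ-dKO cells and 236 FPKM in WT cells, and KRT18 averaged 49.2 FPKM in YAP/TAZ-dKO cells and 234 FPKM in WT cells, also on 40 kPa. KRT8 and KRT18 also rose with stiffness in WT cells, by 0.74 and 0.70 (adjusted p = 3.25e-06 each), where NEFL was numerically lower. VIM, vimentin, fell by 0.50 against WT (adjusted p = 5.95e-10), and within YAP/TAZ-dKO cells it fell by 0.40 on 40 kPa against 1 kPa (adjusted p = 0.000268). NES, nestin, rose by 0.18 (adjusted p = 0.00099).

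Other POU genes are set beside POU3F2, which was chosen from the comparison of YAP/TAZ-dKO with WT cells. Only 4 of 13 were tested, of which 2 rose and 2 were not called in YAP/TAZ-dKO cells, with a median of 0.32. For all tested genes the shares were 23.6% higher and 27% lower. POU3F3, a class III relative, rose by 0.68 (adjusted p = 3.48e-08), to 4.66 ± 0.133 FPKM in YAP/TAZ-dKO cells, against 2.32 ± 0.0536 FPKM in WT cells on 40 kPa, and POU6F1 rose by 0.58 (adjusted p = 0.0186). POU3F1 reached at most 0.18 FPKM in any library, and POU3F4, also of class III, was listed at 0 in all. With stiffness POU3F3 fell in RAP2A/B/C-tKO cells, by 0.54 (adjusted p = 0.00199), and POU4F1 fell by 0.27 in RAP2A/B/C-tKO cells (adjusted p = 0.00842) and by 0.27 in WT cells (adjusted p = 0.0173).

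MYT1L, a partner of POU3F2 in making neurons, reached at most 0.0314 FPKM in YAP/TAZ-dKO libraries, against 0.158 FPKM in WT libraries, and its highest value was 0.271 FPKM, in a LATS1/2-dKO library. The list of proneural factors and POU3F2 partners also held ID1, ID2, ID3 and HES1, which are neither. Of its 12 tested genes, 5 rose, 2 fell and 5 were not called in YAP/TAZ-dKO cells. ID2 was among those that rose, ID1 among those that fell, and ID3 and HES1 were not called. The median of the 12 was 0.16, and among all tested genes 23.6% were higher and 27% lower. SOX11, a factor of immature neurons, lay between 4.37 and 4.59 FPKM in YAP/TAZ-dKO libraries and between 0 and 0.00503 FPKM in WT libraries on 40 kPa, and like POU3F2 it passed the filter only through the YAP/TAZ-dKO libraries, as did MYT1, so that 2 of the 5 genes counted as higher had to differ. Its relative SOX4 rose by 1.08 (adjusted p = 2.66e-14), to 25.9 FPKM in YAP/TAZ-dKO cells, against 10.6 FPKM in WT cells, and ONECUT2 rose by 0.99 (adjusted p = 2.89e-07). SOX2, the progenitor factor, fell by 0.84 (adjusted p = 6.58e-08). In LATS1/2-dKO cells 7 of the 12 fell and 0 rose, beside 17.8% lower and 16% higher among all tested genes.

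REST is the repressor that keeps neuronal genes silent outside neurons. It was at 6.69 ± 1.02 FPKM in YAP/TAZ-dKO cells and 7.54 ± 0.199 FPKM in WT cells on 40 kPa, a difference of -0.13 (SE 0.0921, adjusted p = 0.25), which was not called. The list of REST and its corepressors also held the splicing factors PTBP1 and PTBP2, which are not corepressors of REST. Of its 14 genes, 6 rose, PTBP2 among them, 3 fell and 5 were not called, PTBP1 among them, with a median of 0.08. Beside these counts, 23.6% of all tested genes were higher and 27% lower. HDAC2, a deacetylase of the complex, rose by 0.33 (adjusted p = 5.51e-06), SIN3A by 0.21 (adjusted p = 1.07e-05) and RCOR2 by 0.66 (adjusted p = 0.000233), while RCOR1, the CoREST scaffold, fell by 0.43 (adjusted p = 0.00218).

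General neuronal genes showed no common direction. Of 19 tested cytoskeleton and vesicle genes, 9 rose, 7 fell and 3 were not called in YAP/TAZ-dKO cells, with a median of 0.17. Both counts stand beside 23.6% higher and 27% lower among all tested genes. DPYSL2, an axon growth protein, rose by 0.88 (adjusted p = 6.28e-10), the stathmin STMN3 by 0.89 (adjusted p = 9.65e-08) and the vesicle protein SYP by 0.80 (adjusted p = 8.64e-09), while GAP43, the growth cone protein, fell by 0.78 (adjusted p = 1.97e-10). The neuronal tubulin TUBB3 rose by 0.56 (adjusted p = 0.000387), and RBFOX3, the NeuN antigen, fell by 0.49 (adjusted p = 0.0158). STMN2 was listed at 0 in all 24 libraries, and DCX and ELAVL3 reached at most 0.0315 and 0.0309 FPKM. On 40 kPa the summed FPKM of the 31 genes was 1007 to 1031 in YAP/TAZ-dKO libraries and 940.3 to 946 in WT libraries. On 1 kPa it was 1039 to 1052 in YAP/TAZ-dKO libraries and 970.5 to 1011 in WT libraries. UCHL1 alone reached up to 834 FPKM, so 1 gene can make up most of this sum. In LATS1/2-dKO cells 9 of the 19 fell and 1 rose, beside 17.8% lower and 16% higher among all tested genes.

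Kinases, turnover factors and linkers of neurofilaments were mixed as well: of 20 tested, 7 rose, 6 fell and 7 were not called. Their median was 0.03, and the shares over all tested genes were 23.6% higher and 27% lower. CDK5, which phosphorylates neurofilament tails, rose by 0.44 (adjusted p = 4.24e-06) and its activator CDK5R1 by 0.54 (adjusted p = 0.00159). GSK3B, another kinase of the tails, fell by 0.70 (adjusted p = 6.9e-07), DYNC1H1, the dynein heavy chain, by 0.38 (adjusted p = 3.14e-06), the chaperone gene HSPB1 by 1.22 (adjusted p = 0.000168) and KLHL41 by 1.13 (adjusted p = 1.85e-07).

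Markers of other cell types that express neurofilament genes or POU3F2 were counted beside these results. Of adrenal chromaffin and neuroendocrine markers 12 of 17 stayed under 1 FPKM in every library. DBH and PHOX2A were listed at 0 in all libraries and TH in 23 of them. The 4 that were tested were not called, beside 50.6% of all tested genes called. The summed FPKM of the list was 16.1 to 20.0 in YAP/TAZ-dKO libraries and 15.6 to 18.9 in WT libraries, which overlap. Of 9 tested markers of the kidney list 8 were called higher and 1 lower, with a median of 0.34. This stands beside 23.6% higher and 27% lower among all tested genes. Most of the 9 are developmental factors, namely PAX2, LHX1, EMX2, EYA1, SIX2, WT1 and SALL1, so the count does not describe differentiated epithelium. Of the 8 called higher, PAX2 and AQP1 passed the filter only through the YAP/TAZ-dKO libraries, so that they had to differ. LHX1 rose by 0.87 and EMX2 by 0.70, and EYA1 fell by 0.58, and the summed FPKM of all 22 was 64.5 to 71.7 in YAP/TAZ-dKO libraries and 46.4 to 54.2 in WT libraries. Of 6 tested astrocyte and oligodendrocyte markers 1 rose and 2 fell, beside 23.6% higher and 27% lower among all tested genes. MBP rose by 0.56, SLC1A3 fell by 0.68 and GJA1 fell by 0.25, and the sums were 135.8 to 149 in YAP/TAZ-dKO and 157.5 to 167.1 in WT libraries. The part of these lists in the NEFL and POU3F2 values was not tested.

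**Figure D4:**
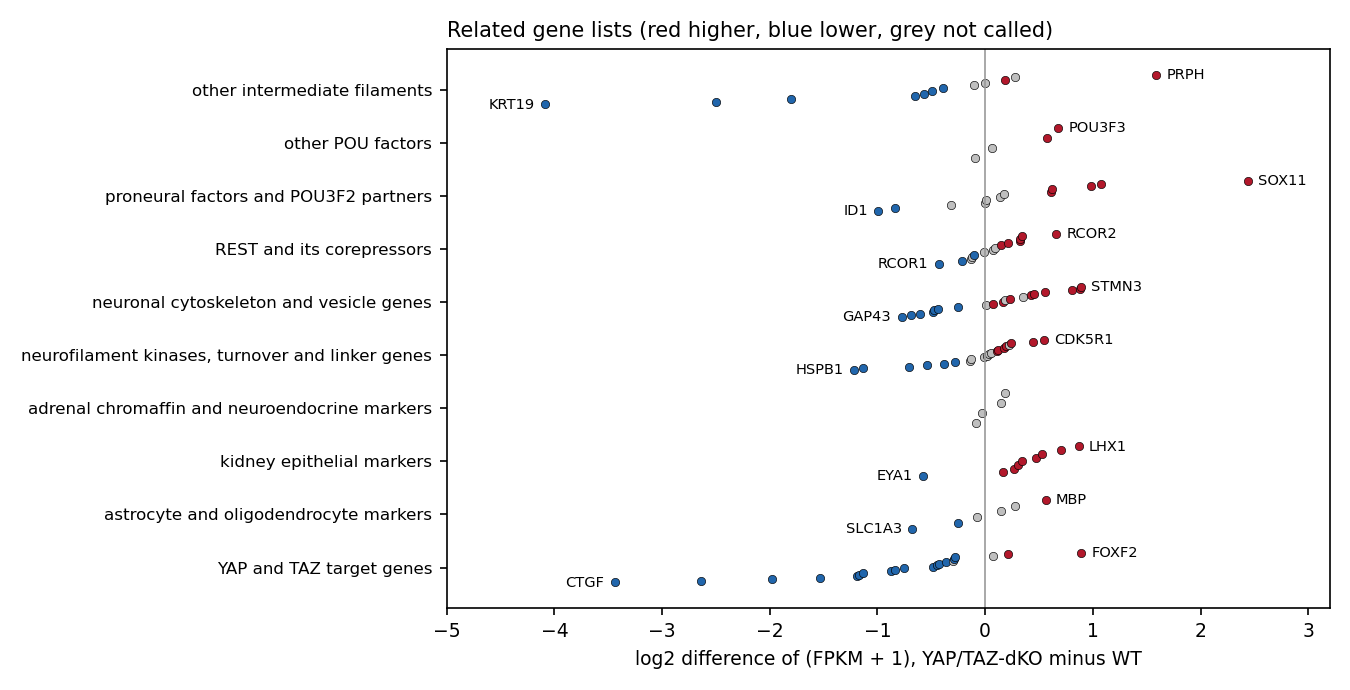
Log2 difference of YAP/TAZ-dKO minus WT cells for each tested gene of 10 lists, 1 point per gene (red higher, blue lower, grey not called at an adjusted p of 0.05). The neuronal lists lie on both sides of 0, keratins lie to the left, down to KRT19 at -4.09, and SOX11 is farthest right at 2.44. SOX11, MYT1, PRPH, PAX2 and AQP1 passed the filter only through the YAP/TAZ-dKO libraries, so they had to differ.

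Genes next to NEFL are given as values. NEFL had the highest difference of 15828 genes between YAP/TAZ-dKO and WT cells, so no neighbour could match it. Of 7 other tested genes within 1 Mb of NEFL on hg19, 5 were called higher and 0 lower in YAP/TAZ-dKO cells, with a median of 0.54. The shares over all tested genes were 23.6% higher and 27% lower. EBF2, a neural and fat cell transcription factor 885 kb away, rose by 1.48 (SE 0.0564, adjusted p = 1.49e-13), to 6.93 ± 0.248 FPKM in YAP/TAZ-dKO cells, against 1.45 ± 0.0907 FPKM in WT cells on 40 kPa. It averaged 0.108 FPKM in LATS1/2-dKO cells on 40 kPa, in which NEFL was not low. CTD-2168K21.2, which overlaps NEFL, was 0.85 higher (adjusted p = 0.000257), at 2.35 ± 0.258 FPKM in YAP/TAZ-dKO cells and 0.978 ± 0.325 FPKM in WT cells, and may share reads with NEFL. Around POU3F2, 8 genes were tested, of which 1 was called higher and 2 lower, with differences of -0.23 to 0.32 and a median of 0.00. The nearest, FBXL4 at 29 kb, differed by 0.09 and was not called (adjusted p = 0.0787). Around INA 13 of 33 were higher and 4 lower, and around NEFH 3 of 30 were higher and 14 lower. The counts around POU3F2, INA and NEFH stand beside the same shares, 23.6% higher and 27% lower.

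**Figure D5:**
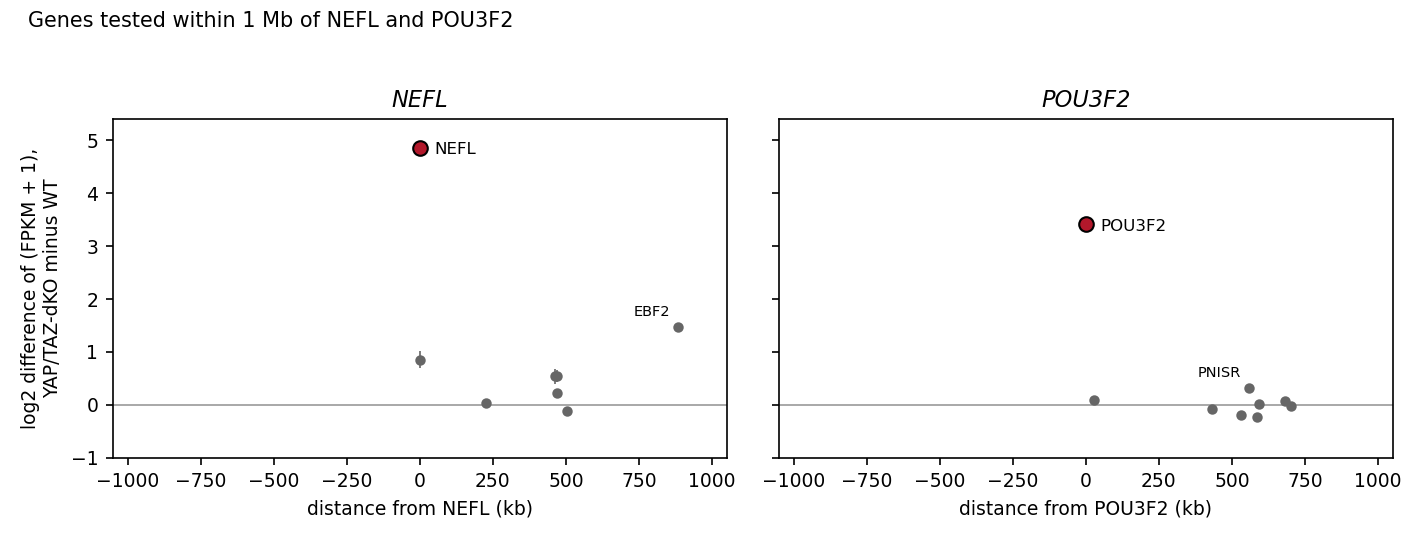
Log2 difference of YAP/TAZ-dKO minus WT cells against distance in kb for tested genes within 1 Mb of NEFL (left) and POU3F2 (right), with standard errors. NEFL at 4.85 and POU3F2 at 3.41 (red) were chosen from this comparison, so their place above the neighbours carries no test. Of the neighbours, EBF2 at 1.48 is highest.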

How the data were processed

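STAR 2.4.2a, Cufflinks 2.2.1 and the build hg19 are named in the submitters' processing notes. The authors deposited 1 table of gene FPKM values per library, and per the file headers each holds a status, a confidence interval and coordinates. Annotation release and strand setting: not given in the sources used here. Each table has 60350 entries under 58266 symbols. Entries of the 338 symbols on several entries were summed, and 92 symbols with a failed status, none of them a gene of interest, were left out. No counts are in the tables: depth was estimated from the width of the deposited intervals over 505 to 602 genes with 1 transcript per library.

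The gene set, the lists and the settings were chosen with earlier results of these data known. log2(FPKM + 1) of the 15828 genes with at least 1 FPKM in at least 3 libraries was fitted with limma 3.58.1 in R 4.3.3, with 1 mean per group over 24 libraries (16 residual degrees of freedom) and a trend of the spread, and 10 contrasts. Tests were two-sided, with Benjamini-Hochberg adjustment over all tested genes of a contrast, and a gene was called below 0.05. The procedure was tested on simulated data. Named were all 5 genes, the called list genes with the smallest p and, per gene, the 3 nearest patterns; further list genes named (NES, RBFOX3, TUBB3, HSPB1, CDK5R1 and REST), genes at or near 0 and neighbours were chosen after their values were seen. Alternatives were a pseudocount of 0.1, no filter, median ratio scaling, no trend, a replicate block, the compared libraries alone, and leaving out libraries. The p-values measure the spread between these libraries. No batch was tested, because no source used here assigns the kit's index sets to libraries. Protein sequences were not used here, and some genes of the lists are not reported.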

Additional observations from a re-analysis of the deposited data

How the results depend on the processing

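NEFL was lower in RAP2A/B/C-tKO and higher in LATS1/2-dKO cells than in WT under all 32 settings. The POU3F2 difference in LATS1/2-dKO cells was called under all 31 that could be run. In settings with the filter POU3F2 entered only through YAP/TAZ-dKO libraries, so those calls do not count as separate support. With no filter the difference was 0.38 (adjusted p = 4.28e-06 by limma). POU3F2 fell under the filter where comparisons without YAP/TAZ-dKO used the compared libraries alone. POU3F2 in RAP2A/B/C-tKO against WT, -0.13, missed the threshold with no filter (adjusted p = 0.106) and with the replicate block (adjusted p = 0.0608), and ranged from -0.1451 to -0.1138 when single libraries were left out. With a pseudocount of 0.1, POU3F2 in YAP/TAZ-dKO minus WT was 5.135 and its stiffness difference in RAP2A/B/C-tKO was -0.691, now called. Without both GC-skewed libraries the NEFL stiffness differences in WT (-0.2033) and YAP/TAZ-dKO (-0.2252) were called.

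Leaving out single libraries moved the NEFL stiffness difference in LATS1/2-dKO between -0.04246 and 0.1473, the NEFL interaction of YAP/TAZ-dKO between -0.07427 and 0.005145, the POU3F2 stiffness difference in YAP/TAZ-dKO between -0.03347 and 0.01192, and the POU3F2 interaction of RAP2A/B/C-tKO between -0.06258 and 2.597e-05. The count of genes called with stiffness ranged between 29 and 95 in YAP/TAZ-dKO (55 in all libraries), 17 and 339 in LATS1/2-dKO (112), 258 and 1141 in RAP2A/B/C-tKO (612) and 46 and 369 in WT cells (156). The interaction counts ranged between 40 and 120 (62), 7 and 84 (10) and 5 and 12 (8) for YAP/TAZ-dKO, LATS1/2-dKO and RAP2A/B/C-tKO.

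Without the GC-skewed libraries the stiffness counts were 388, 479 and 1010 in YAP/TAZ-dKO, LATS1/2-dKO and WT, the interaction counts 412, 211 and 20 for YAP/TAZ-dKO, LATS1/2-dKO and RAP2A/B/C-tKO, and RAP2A/B/C-tKO against WT gave 4370 calls (2528 with them). With only the compared libraries the stiffness counts were 134, 3, 9 and 66 in YAP/TAZ-dKO, LATS1/2-dKO, RAP2A/B/C-tKO and WT, and the interaction counts 273, 5 and 4 for the 3 knockout lines in that order. With no filter RAP2A/B/C-tKO stiffness gave 387 calls and the interactions 22 for LATS1/2-dKO and 13 for RAP2A/B/C-tKO. Median ratio scaling (factors 0.985 to 1.03) gave 51 LATS1/2-dKO stiffness and 20 LATS1/2-dKO interaction calls, and the pseudocount of 0.1 gave 3 RAP2A/B/C-tKO interaction calls. The replicate block left 57 LATS1/2-dKO stiffness calls. Equal numbers did not pair the libraries: over 84 same-number pairs the deviations correlated at -0.25 to 0.15, above 0.1 in 3. The cause of these shifts was not tested. Among the other values of list genes and counts per list, 2228 kept their call, 57 lost it, 6 moved and 0 reversed.

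Values of POU3F2 outside YAP/TAZ-dKO cells rest on few fragments. NEFM and NEFH were not tested, and the highest deposited upper bounds of their levels were 0.302 and 0.0386 FPKM. These bounds belong to single libraries and set no limit on a difference between groups.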
